A study of Danio rerio with 12 samples.

Results

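The mitochondrial genome of zebrafish encodes 6 subunits of respiratory complexes III, IV and V, and their transcripts were followed here in juvenile gonads. The 6 genes were taken from the gene count table by identifier, and no threshold on a measured value entered the rule. They are *mt-cyb* (ENSDARG00000063924) of complex III, *mt-co1* (ENSDARG00000063905), *mt-co2* (ENSDARG00000063908) and *mt-co3* (ENSDARG00000063912) of complex IV, and *mt-atp6* (ENSDARG00000063911) and *mt-atp8* (ENSDARG00000063910) of complex V. They are 6 of the 13 mitochondrially encoded protein genes and 6 of the 32520 genes in the table. All 6 passed the filter on low counts, which kept 19292 genes.

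The samples were 12 gonads from zebrafish of the AB strain, all carrying the transgene Tg(piwil1-egfp-nos3UTR)ihb327Tg, which marks germ cells with green fluorescent protein. There were 2 ovaries and 4 testes at 25 days post fertilization (dpf), and 3 ovaries and 3 testes at 30 dpf, with no other treatment. Polyadenylated RNA of each gonad was amplified as cDNA and sequenced. Nothing in the sources used here says that the gonads of a group came from separate batches or rearing tanks, so that p-values measure the spread between these gonads.

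Mitochondrial DNA is transcribed as long polycistronic RNAs from both strands, which are cut into single messages largely at the transfer RNAs that lie between the genes. The messages of *mt-atp8* and *mt-atp6* overlap in vertebrates and are carried on a shared transcript. Each of complexes III, IV and V is assembled from these few mitochondrial products and many subunits that are encoded in the nucleus, made in the cytosol and imported. Oocytes are known for a large number of mitochondria, since the egg supplies the mitochondria of the embryo.

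The total count per gonad was between 4471588 and 5331223. Values are given as CPM, counts brought to a common library size after scaling by TMM, a method that aligns the bulk of genes between libraries. Its factors were lowest in 30 dpf ovaries 1 and 2, at 0.818 and 0.855, and were 0.957 to 1.12 in the other 10 gonads. The sex labels were checked against oocyte markers, and 6 of 6 were higher in ovaries, with a summed level of 3550 to 8100 CPM in ovaries and 165 to 1100 CPM in testes, and no marker at 0 in any gonad. Of 6 genes for testis supporting and hormone-producing cells, 4 were lower in ovaries over both ages, and their summed level was 456 to 1040 CPM in ovaries and 364 to 6440 CPM in testes. The 6 genes came from 5 listed symbols, since *sox9a* was matched to 2 entries named *sox9*, of which 1 can be its paralogue. None of these 6 genes was called at 25 dpf, where 13.2% of all tested genes were called in either direction. Their sums at that age overlapped, at 456 to 684 CPM in ovaries and 364 to 1430 CPM in testes. The 6 oocyte markers were all called higher in ovaries at 25 dpf. Of 6 germ cell markers, 4 were higher in ovaries over both ages, and the other 2 had log2 fold changes below 0 and were not called. The 6 summed to 3440 to 5080 CPM in ovaries and to 2040 to 2370 CPM in testes. Muscle markers stood at 41100 CPM in 25 dpf testis 1, at 375 to 1110 CPM in the other testes and at 76.3 to 936 CPM in ovaries. Liver and gut markers were at 280 to 6820 CPM in testes and 29 to 333 CPM in ovaries, and kidney markers at 111 to 190 CPM in testes and 92.8 to 130 CPM in ovaries. In whole gonads, fewer cells of a type and less RNA per cell cannot be told apart.

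To ask how much of the RNA these genes made up, their counts were summed in each gonad. The 6 genes held 0.915% and 0.637% of all counts in the 25 dpf ovaries, and 0.493%, 0.485% and 0.623% in the 30 dpf ovaries. In testes they held 1.05%, 0.945%, 0.834% and 0.806% at 25 dpf, and 0.866%, 0.956% and 0.962% at 30 dpf. At 30 dpf every ovary was below every testis, whereas at 25 dpf ovary 1 lay among the testes. The mean share was 0.534% ± 0.0775 (SD, n = 3) in 30 dpf ovaries and 0.928% ± 0.0534 (SD, n = 3) in 30 dpf testes. Shares are of total counts, without TMM scaling. By total counts alone, the median log2 fold change of ovary against testis over all tested genes was −0.41 at 30 dpf. At these depths a 95% Wilson interval of a share was narrow, for example 0.953% to 0.971% in 30 dpf testis 3. Intervals cover counting error only. The highest share of all was that of 25 dpf testis 1, the gonad with 41100 CPM of muscle markers; the part of muscle RNA in its value was not tested. Averaged over the ages, the share was lower in ovaries by 0.264 percentage points, and by 0.194 to 0.333 percentage points with any single gonad left out.

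**Figure D1:**
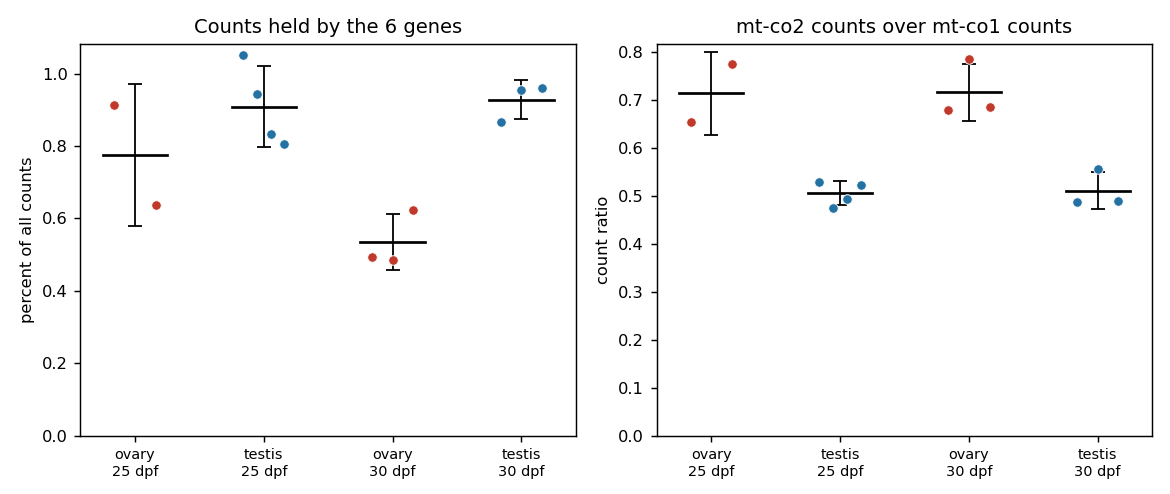
Left, percent of all counts held by the 6 genes; right, counts of *mt-co2* divided by counts of *mt-co1*. Each point is a gonad, the bar is the group mean and the whisker the SD. The 30 dpf ovaries, at 0.485% to 0.623%, lie below all testes on the left, and all ovaries, at 0.654 to 0.786, lie above all testes on the right.

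Complex IV, cytochrome c oxidase, passes electrons to oxygen, and its catalytic core is formed by the 3 mitochondrial products. *mt-co1* encodes the subunit that holds the site where oxygen is reduced. It was at 2014, 1677 and 2087 CPM in the 30 dpf ovaries and at 2843, 2962 and 3175 CPM in the 30 dpf testes. These groups did not overlap. At 25 dpf it was at 2821 and 1741 CPM in ovaries and at 3472, 3073, 2511 and 2401 CPM in testes, and here the higher ovary lay between the testes. *mt-co1* was lower in ovaries over both ages (log2 fold change −0.48, SE 0.14, adjusted p = 0.0182 by the quasi-likelihood test of edgeR, adjusted by Benjamini-Hochberg over all 19292 genes). At 30 dpf it was 1.55-fold lower (−0.64, SE 0.19, adjusted p = 0.0253), and at 25 dpf it did not pass the test (−0.33, SE 0.21, adjusted p = 0.299).

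*mt-co3* encodes a core subunit of the same complex that carries no metal centre. Its level was 1174, 1090 and 1229 CPM in the 30 dpf ovaries and 1476, 1786 and 1671 CPM in the 30 dpf testes. Again the 30 dpf groups stood apart. At 25 dpf it was at 1738 and 1328 CPM in ovaries and at 2037, 1831, 1533 and 1394 CPM in testes, so that the groups overlapped. By edgeR, *mt-co3* was lower in ovaries over both ages (log2 fold change −0.32, SE 0.12) with an adjusted p of 0.0497, at the edge of the threshold. At 30 dpf it was 1.41-fold lower (−0.50, SE 0.17, edgeR adjusted p = 0.0363).

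*mt-co2* encodes the subunit that receives electrons from cytochrome c, and it was not called lower in ovaries as the other complex IV members were. It was at 1369, 1319 and 1433 CPM in the 30 dpf ovaries and at 1387, 1650 and 1556 CPM in the 30 dpf testes. At 25 dpf it was at 1845 and 1351 CPM in ovaries and at 1836, 1463, 1243 and 1257 CPM in testes. Ovaries and testes overlapped at both ages. Over both ages the log2 fold change was −0.01 (SE 0.13, edgeR adjusted p = 0.964), and at 30 dpf it was −0.16 (SE 0.17, edgeR adjusted p = 0.508), near the −0.11 that was the median of all tested genes at that age.

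Complex V, ATP synthase, makes ATP from the proton gradient. *mt-atp6* encodes the subunit that forms the proton path beside the rotating ring. It was at 464, 618 and 585 CPM in the 30 dpf ovaries and at 682, 1127 and 1123 CPM in the 30 dpf testes. At 25 dpf it was at 1079 and 879 CPM in ovaries and at 1179, 840, 808 and 1068 CPM in testes. Only the 30 dpf ovaries stood apart, and 30 dpf testis 1 was the nearest testis to them. At 30 dpf *mt-atp6* was 1.76-fold lower in ovaries (log2 fold change −0.81, SE 0.22, edgeR adjusted p = 0.0159). Over both ages it missed the threshold (−0.40, SE 0.16, edgeR adjusted p = 0.0654), and at 25 dpf the log2 fold change was 0.01 (SE 0.24).

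*mt-atp8* encodes a small membrane subunit beside the *mt-atp6* product. It had 5, 5 and 6 counts in the ovaries of 30 dpf and 6, 26 and 23 in the testes of that age. In the younger gonads it had 23 and 18 counts in ovaries and 18, 23, 10 and 26 in testes. The 30 dpf ovaries and 30 dpf testis 1 were the lowest, and at this depth 5 counts have an exact 95% Poisson interval of 1.62 to 11.7. The log2 fold change at 30 dpf was −1.45 (SE 0.58) and did not pass the test (edgeR adjusted p = 0.0714). The study's methods name no mode for reads that fall on both *mt-atp8* and *mt-atp6*, and the default of the HTSeq counter leaves such reads out, so the counts of both genes are uncertain to that extent. The ratio of *mt-atp6* to *mt-atp8* counts ranged from 208 to 566 between gonads.

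Complex III passes electrons from ubiquinol to cytochrome c, and cytochrome b, the product of *mt-cyb*, is its only mitochondrially encoded subunit. *mt-cyb* was at 1012, 991 and 1198 CPM in the 30 dpf ovaries and at 1389, 1682 and 1423 CPM in the 30 dpf testes. The groups did not overlap at this age. At 25 dpf it was at 1832 and 1339 CPM in ovaries and at 2103, 1652, 1497 and 1400 CPM in testes, which overlapped. At 30 dpf the log2 fold change was −0.49 (SE 0.18) and narrowly missed the threshold (edgeR adjusted p = 0.0543). Over both ages it was −0.28 (SE 0.13, edgeR adjusted p = 0.107).

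**Figure D2:**
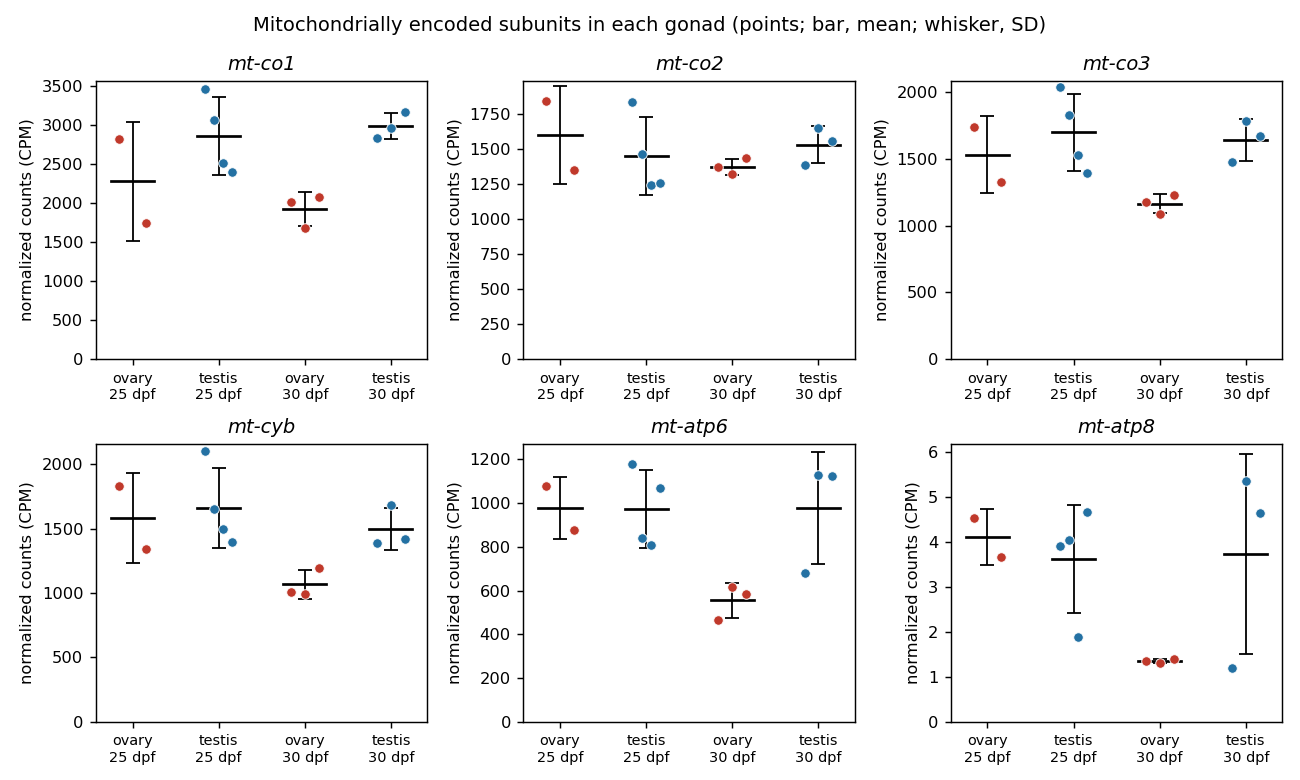
Normalized counts (CPM) of each of the 6 genes in each gonad, 1 panel per gene with its own axis from 0. Points are gonads, bars group means and whiskers SDs. The 30 dpf ovaries have the lowest group mean for all 6 genes. They lie below all 30 dpf testes for *mt-co1*, *mt-co3*, *mt-cyb* and *mt-atp6*, with 464 to 618 CPM of *mt-atp6* against 682 to 1127 CPM.

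At 30 dpf, 3 of the 6 genes were called lower in ovaries and none higher, beside 16.5% of all tested genes called lower and 18.7% called higher (35.2% in either direction). Every 30 dpf ovary was below every 30 dpf testis for 4 of the 6 genes, and this held for 25.7% of all tested genes. The log2 fold changes of the 6 genes had a median of −0.57, against −0.11 over all tested genes. Markers of other cells were compared at the same age. At 30 dpf 3 of 5 erythrocyte markers were called lower in ovaries, and the other 2 were above 0 and not called. The 5 summed to 58.9, 206 and 76.2 CPM in ovaries and to 105, 1530 and 645 CPM in testes. Of the 6 testis support markers 4 were called lower, at 681 to 1040 CPM in ovaries and 1290 to 6440 CPM in testes. Muscle markers were at 76.3, 199 and 187 CPM in ovaries and at 446, 497 and 649 CPM in testes, without overlap, with 0 of 9 called lower, and 3 of 9 without 25 dpf testis 1. Liver and gut markers were at 29 to 249 CPM in ovaries and 297 to 1270 CPM in testes, also without overlap, with 0 of 6 called. Of 6 kidney markers 1 was called higher and 1 lower. All 6 oocyte markers and 4 of 6 germ cell markers were called higher in ovaries at this age. The other 2 germ cell markers were below 0 and not called. The part of these cell types in the members' difference was not tested.

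Over both ages 2 of the 6 genes were called lower in ovaries, against 21.3% of all tested genes, and none higher, against 21.9% (43.2% in either direction). Their median was −0.36, and that of all tested genes −0.13. No member had all 5 ovaries below all 7 testes, as 8.2% of all tested genes did.

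These calls rested on few gonads. At 30 dpf, *mt-co1* and *mt-atp6* lost their calls without 30 dpf ovary 1 (edgeR adjusted p = 0.0531 and 0.0623), without 30 dpf testis 2 (0.0689 and 0.0673) or without 30 dpf testis 3 (0.0726 and 0.0579), and *mt-co1* also without 30 dpf ovary 2 (0.085). Their log2 fold changes stayed between −0.73 and −0.56 for *mt-co1* and between −1.02 and −0.68 for *mt-atp6* with any gonad left out. Calls over all genes fell as well. Lower calls at 30 dpf were 3188 in the main fit, 1985 without 30 dpf ovary 1 and 2027 without 30 dpf ovary 2. *mt-co3* at 30 dpf lost its call without any of 8 gonads, namely both 25 dpf ovaries, 30 dpf ovaries 1 and 2, 25 dpf testes 2 and 3, and 30 dpf testes 2 and 3, with adjusted p of 0.0514 to 0.14. Over both ages *mt-co1* lost its call without 25 dpf ovary 2 alone (log2 fold change −0.29, adjusted p = 0.149). Without that ovary, lower calls over all genes fell from 4108 to 2139. *mt-co3* kept its call over both ages only without 30 dpf ovary 3, 25 dpf testis 4 or 30 dpf testis 1. Without both 30 dpf ovaries of the lowest TMM factors, an alternative added after the data were seen, no member was called at 30 dpf, where the log2 fold changes were −0.52 for *mt-co1*, −0.74 for *mt-atp6* and −0.42 for *mt-co3*. Over all genes that fit called 848 higher and 280 lower at 30 dpf, against 3601 and 3188 in the main fit. Without 25 dpf testis 1, the gonad with high muscle markers, *mt-cyb* gained a call at 30 dpf (−0.51, adjusted p = 0.0293), and *mt-co3* lost its call over both ages (−0.28, adjusted p = 0.0711). *mt-cyb* also gained that call without 30 dpf ovary 3 (−0.61, adjusted p = 0.0389). Without 30 dpf testis 1, *mt-atp8* was called at 30 dpf (−1.87, adjusted p = 0.017) and *mt-atp6* over both ages (−0.51, adjusted p = 0.0171).

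**Figure D3:**
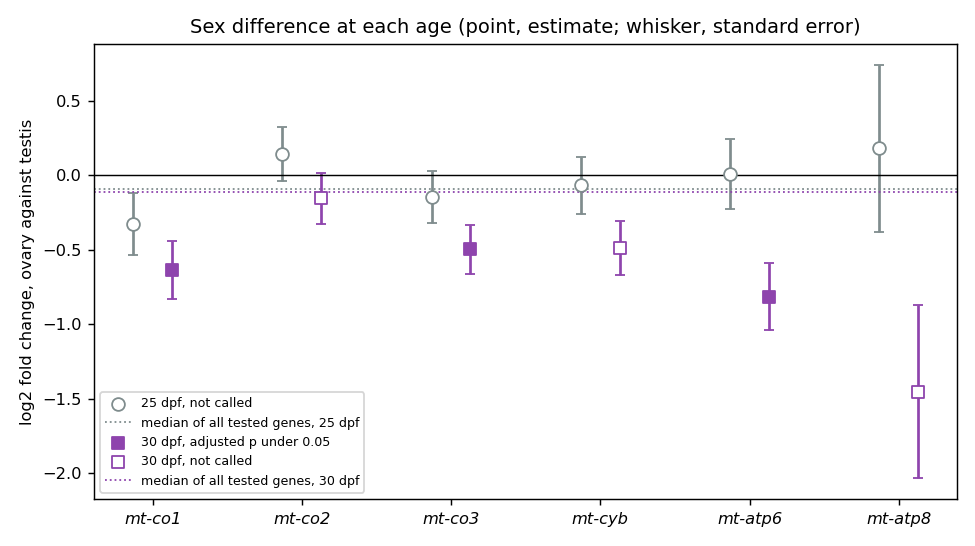
Log2 fold change of ovary against testis for each gene at 25 dpf (circles) and 30 dpf (squares), with standard errors. Filled symbols passed the adjusted p threshold, and dotted lines are the medians of all tested genes, −0.09 at 25 dpf and −0.11 at 30 dpf. All 6 squares lie below 0, from −0.16 for *mt-co2* to −1.45 for *mt-atp8*.

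At 25 dpf no member passed the test between the sexes. By edgeR, 0 of 6 were called in either direction, where 4.59% of all tested genes were lower and 8.64% higher in ovaries (13.2% in either direction). At an unadjusted p under 0.05 the count was also 0, beside 6073 of the 19292 tested genes. DESeq2 called 0 of 6, beside 3845 of all genes. The log2 fold changes were from −0.33 for *mt-co1* to 0.18 for *mt-atp8*, with 3 below 0 and 3 above. The 2 ovaries differed from each other: all 6 genes were lower in ovary 2 than in ovary 1, for *mt-co1* at 1741 against 2821 CPM. No member at 25 dpf had all ovaries below all testes, as 19.1% of all tested genes had.

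Whether the sex difference changed with age was tested directly. The difference was more negative at 30 dpf than at 25 dpf for all 6 genes, by −0.30 for *mt-co2* to −1.63 for *mt-atp8* on the log2 scale, but edgeR called 0 of 6, with adjusted p of 0.437 to 0.738, and 0% of all tested genes. At an unadjusted p under 0.05 this comparison had 1 of the 6 genes, *mt-atp6* (−0.82, SE 0.32, edgeR adjusted p = 0.437), and 1952 of all genes, and DESeq2 called 89 genes and no member. DESeq2 gave *mt-atp8* no adjusted p here and so could not call it. In ovaries, the log2 fold changes from 25 to 30 dpf were below 0 for all 6 genes, from −0.22 for *mt-co2* to −1.59 for *mt-atp8*, and edgeR called 0 of 6 and 0% of all tested genes. Unadjusted p-values under 0.05 were found for 3 of the 6, *mt-atp6* (−0.82, SE 0.25, edgeR adjusted p = 0.31), *mt-cyb* (−0.57, SE 0.20, adjusted p = 0.349) and *mt-atp8* (−1.59, SE 0.63, adjusted p = 0.378), and for 2215 of all genes, and DESeq2 called 190 genes and no member. *mt-atp8* again had no adjusted p from DESeq2. In testes the log2 fold changes with age were from −0.15 for *mt-cyb* to 0.08 for *mt-co2*. There edgeR called 0 of 6, beside 0.00518% of all tested genes, and DESeq2 called 0 of 6, beside 371 of all genes. At an unadjusted p under 0.05 this comparison had 0 of the 6 genes and 2514 of all genes. These comparisons share groups with the comparisons of the sexes, so their values are not independent of them. The negative change in ovaries was not particular to the 6 genes, whose median was −0.48, against 0.02 over all tested genes. Medians were −0.86 for the mitochondrially encoded complex I genes, and −0.49, −0.55 and −0.44 for nuclear subunits of complexes III, IV and V. No gene of these lists was called.

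The members also differed in their proportions. *mt-co2* made up 19.8% to 23.2% of the counts of the 6 genes in ovaries and 16.4% to 17.9% in testes, without overlap. The ratio of *mt-co2* to *mt-co1* counts, which no scaling of libraries can move, was 0.654 and 0.776 in the 25 dpf ovaries and 0.68, 0.786 and 0.686 in the 30 dpf ovaries. It was 0.529, 0.476, 0.495 and 0.524 in the 25 dpf testes and 0.488, 0.557 and 0.49 in the 30 dpf testes. All 5 ovaries were above all 7 testes at both ages, including 25 dpf, where none of the 6 genes parted the sexes by its level. Of the 15 pairs among the 6 genes, 2 had ratios that parted all ovaries from all testes, *mt-co2* with *mt-co1* and *mt-co2* with *mt-co3*. Among the 78 pairs of all 13 mitochondrial protein genes 12 did so, which is 15.4%, so the count for the 6 genes was near the background. This ratio was singled out after its values were seen and has no test.

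Between gonads of a group, the members fell into 2 sets. The deviations of *mt-co1*, *mt-co2*, *mt-co3* and *mt-cyb* from their group means had pairwise Pearson correlations of 0.851 to 0.954 over the 12 gonads. *mt-atp6* and *mt-atp8* correlated with each other at 0.802, but with the other 4 genes at only 0.279 to 0.581. The low *mt-atp6* and *mt-atp8* values of 30 dpf testis 1 are an example, since its *mt-co1* level of 2843 CPM was near those of the other 30 dpf testes. The points share their library and its scaling, and *mt-atp6* and *mt-atp8* also share sequence, so the values are a description. Without removal of the group means the ranges overlapped, at 0.632 to 0.955 among the 4 genes and 0.515 to 0.819 between the sets. *mt-atp8* had only 5 to 26 counts per gonad, and the part of counting error in its correlations was not tested.

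The genes outside the mitochondrial genome whose levels followed the mean of the 6 genes most closely over the 12 gonads, among 19279 compared, were *phkg1* (Pearson r = 0.949), *ndufa4* (0.948), *rps28* (0.943), *cox8a* (0.933) and *rplp1* (0.915), a description over points that share library and scaling. *phkg1*, a catalytic subunit of phosphorylase kinase, was low, at 0 to 2.97 CPM in ovaries and 0.567 to 8.25 CPM in testes. *ndufa4* and *cox8a* encode small subunits of complex IV, and *rps28* and *rplp1* encode ribosomal proteins. Their ovary and testis ranges overlapped, for *cox8a* at 61.6 to 149 CPM in ovaries and 89.9 to 140 CPM in testes. Of the complex I genes of the mitochondrial genome, *mt-nd4* was the closest to the mean of the 6 genes at 0.954 and *mt-nd3* the farthest at 0.351.

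The mitochondrial genome also encodes 7 subunits of complex I, of which *mt-nd6* lies on the other strand. Over both ages 5 of 7 were called lower in ovaries and none higher, against 21.3% and 21.9% of all tested genes, with a median log2 fold change of −0.39 against −0.13. At 30 dpf 5 of 7 were lower, against 16.5% of all tested genes, with a median of −0.84 against −0.11. At 25 dpf 1 of 7 was higher, against 8.64%, and none lower, with a median of 0.07 against −0.09. Without 25 dpf testis 1, the gonad of high muscle markers, 3 of 7 were lower and 1 higher over both ages. Without 30 dpf ovaries 1 and 2 none was called, where 2560 of all genes were higher and 1835 lower over both ages.

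The nuclear genes for the partner subunits were then compared between the sexes, over both ages unless an age is named. Among all tested genes 21.9% were higher and 21.3% lower in ovaries, with a median log2 fold change of −0.13. Of 9 nuclear complex III genes, 4 were higher and 1 lower, with a median of 0.34. *uqcr10*, a small subunit, was at 132 to 240 CPM in ovaries and 65.7 to 135 CPM in testes (log2 fold change 0.86, SE 0.16, edgeR adjusted p = 0.00151). *uqcrc2a*, a core subunit, was also higher (0.67, SE 0.19, edgeR adjusted p = 0.0141), but not without 25 dpf ovary 1 (0.41, adjusted p = 0.0929). The gene listed as *si:ch1073-325m22.2*, a synonym of which is *uqcr11*, was lower (−0.42, SE 0.13, edgeR adjusted p = 0.0242), and lost its call without 25 dpf ovary 2 (−0.28, adjusted p = 0.184), 30 dpf ovary 1 (0.0546), 30 dpf testis 2 (0.0743) or 30 dpf testis 3 (0.0522). Of the 9 genes, 1 was higher and 1 lower at 30 dpf, beside 18.7% and 16.5% of all tested genes. Their median at that age was 0.27 against −0.11. Scaling by total counts alone gave 0 higher and 2 lower at 30 dpf, with a median of −0.03 against −0.41 over all tested genes. Without 30 dpf ovaries 1 and 2 none was called at that age, where 848 of all genes were higher and 280 lower.

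Of 23 nuclear complex IV genes, 7 were higher and 6 lower in ovaries over both ages. These shares were near the 21.9% and 21.3% of all tested genes, with a median of −0.10 against −0.13. The higher genes were led by *cox5a*, at 195 to 330 CPM in ovaries and 106 to 189 CPM in testes (log2 fold change 0.85, SE 0.13, edgeR adjusted p = 0.000404), and by *cox7a2* (ENSDARG00000053217), at 172 to 351 CPM in ovaries and 115 to 227 CPM in testes (0.72, SE 0.13, edgeR adjusted p = 0.00156). The lower genes were led by *cox7a1*, known in mammals as the form of that subunit in heart and skeletal muscle (−1.70, SE 0.42, edgeR adjusted p = 0.00694), and by *ndufa4b* (−1.58, SE 0.46, edgeR adjusted p = 0.0166). Both were low, with *cox7a1* at 2.42 to 8.11 CPM in ovaries and 5.22 to 21.9 CPM in testes, and both lost their calls without 25 dpf ovary 2 (adjusted p = 0.0516 and 0.0734). Muscle markers were at 41100 CPM in 25 dpf testis 1. Without that gonad both genes kept their calls, and the list had 8 genes higher and 5 lower. With all gonads kept, 7 of the 23 genes were lower and 4 higher at 30 dpf, beside 16.5% and 18.7% of all tested genes. Their median at that age was −0.27 against −0.11. Among the 25 dpf gonads 3 genes were higher and none lower, beside 8.64% and 4.59%, with a median of 0.11 against −0.09. The split at 30 dpf was not stable, and calls over all genes moved too. Scaling by total counts alone gave 11 lower and 1 higher at that age, with a median of −0.56 against −0.41 over all tested genes. Without 30 dpf ovaries 1 and 2 none was called, where 848 of all genes were higher and 280 lower.

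Of 20 nuclear complex V genes, 5 were higher in ovaries, a share near the 21.9% of all tested genes, and none was lower, where 21.3% of all were, with a median of 0.10 against −0.13. *atp5mc3b*, for a subunit of the rotating ring, was at 1180 to 1700 CPM in ovaries and 565 to 873 CPM in testes, a 2.03-fold difference (log2 fold change 1.02, SE 0.13, edgeR adjusted p = 0.000139). The gene listed as *atp5md*, a small membrane subunit, was at 40.3 to 61.3 CPM in ovaries and 18.3 to 40.6 CPM in testes (0.81, SE 0.21, edgeR adjusted p = 0.00888). The ranges of *atp5md* overlapped slightly, and those of *atp5mc3b* did not overlap. Of the 20 genes, 3 were higher and none lower at 30 dpf, beside 18.7% and 16.5% of all tested genes. Their median at that age was 0.10 against −0.11. Other scalings gave lower genes at 30 dpf, with 2 higher and 3 lower by upper-quartile scaling and 2 and 4 by total counts alone. The medians of all tested genes at that age were −0.29 and −0.41 under these scalings. Without 30 dpf ovaries 1 and 2 the list had 1 higher and 0 lower at 30 dpf, beside 848 and 280 of all genes.

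**Figure D4:**
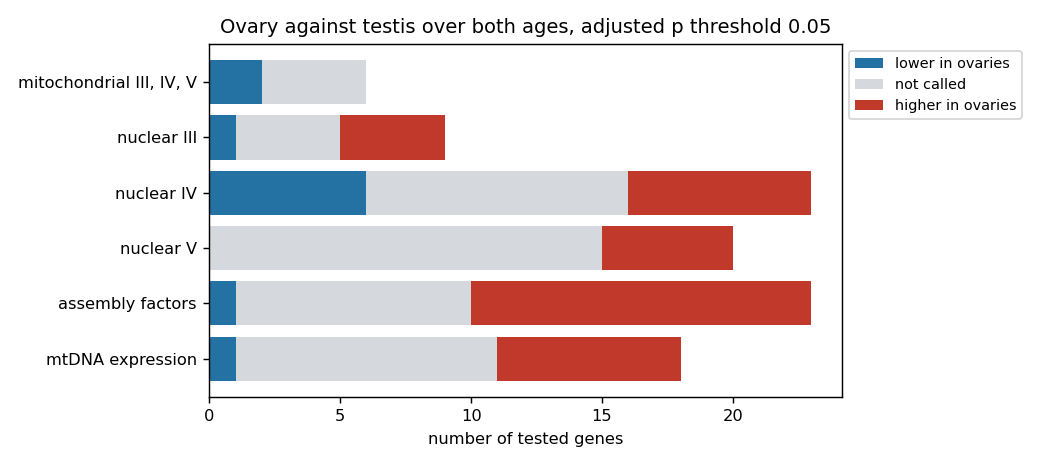
Number of tested genes called lower, not called or called higher in ovaries over both ages, for the 6 mitochondrially encoded genes and for nuclear subunits of complexes III, IV and V, assembly factors of these complexes and genes of mitochondrial DNA expression. Of the 6 mitochondrial genes 2 were lower and none higher, while 13 of 23 assembly factors were higher and 1 lower.

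Assembly factors insert metal centres and join subunits of the 3 complexes. Of 23 tested, 13 were higher in ovaries and 1 lower, beside 21.9% and 21.3% of all tested genes, with a median log2 fold change of 0.60 against −0.13. *sco1*, a copper chaperone of complex IV, had the largest difference (2.16, SE 0.59, edgeR adjusted p = 0.0118), but without 25 dpf ovary 1 it was 0.71 (adjusted p = 0.275). It was at 1.05 to 36.2 CPM in ovaries and 0.434 to 2.22 CPM in testes, and at 30 dpf the log2 fold change was −0.32. *cox11*, also needed for copper insertion, followed (1.67, SE 0.52, edgeR adjusted p = 0.0239), and lost its call without 25 dpf ovary 2 (adjusted p = 0.105), 30 dpf ovary 2 (0.0532) or 30 dpf testis 3 (0.0537). *cox11* was low, at 4.84 to 14.7 CPM in ovaries and 0.807 to 8.32 CPM in testes, with overlap. *atpaf1*, a chaperone of ATP synthase, was the gene that was lower (−0.30, SE 0.10, edgeR adjusted p = 0.0326), and it kept its call without 4 of the 12 gonads left out in turn.

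Genes that copy, transcribe and process mitochondrial DNA and RNA were 7 higher and 1 lower in ovaries of 18 tested, beside 21.9% and 21.3% of all tested genes, with a median of 0.30 against −0.13. *supv3l1*, a helicase of mitochondrial RNA turnover, was at 18.2 to 53.8 CPM in ovaries and 7.43 to 13.9 CPM in testes (log2 fold change 1.36, SE 0.22, edgeR adjusted p = 0.00067). *mgme1*, a nuclease of mitochondrial DNA replication, was at 50.5 to 76.3 CPM in ovaries and 24.5 to 44 CPM in testes (1.20, SE 0.14, edgeR adjusted p = 0.000111). The gene that was lower was *tfam*, which packages mitochondrial DNA and starts its transcription, at 33.1 to 90.2 CPM in ovaries and 81.9 to 125 CPM in testes (−0.69, SE 0.16, edgeR adjusted p = 0.00511). *polrmt*, the mitochondrial RNA polymerase, was at 14.2 to 35.2 CPM in ovaries and 15.5 to 33.3 CPM in testes and did not pass the test (0.31, SE 0.25, edgeR adjusted p = 0.341); it was named after its values were seen.

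The splits of these lists moved with the scaling. With total counts alone, the median of all tested genes over both ages was −0.34, and the lists had 1 higher and 1 lower for complex III, 3 and 9 for complex IV, 3 and 1 for complex V, 10 and 3 for assembly factors, and 4 and 1 for mitochondrial DNA expression. Without 30 dpf ovaries 1 and 2 the same lists had 1 and 0, 3 and 2, 1 and 0, 6 and 0, and 4 and 1, beside 2560 and 1835 of all genes. In that fit *uqcrc2a* (0.55, edgeR adjusted p = 0.128), *si:ch1073-325m22.2* (−0.41, 0.121), *cox7a1* (−1.61, 0.0761), *ndufa4b* (−1.29, 0.136), *atp5md* (0.67, 0.101), *sco1* (0.0729), *cox11* (1.69, 0.1) and *atpaf1* (−0.31, 0.147) lost their calls.

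The mitochondrial and nuclear parts of each complex were set against each other within a gonad, as the ratio of their summed CPM, which library scaling does not change. For complex III the ratio was 0.539 and 0.485 in the 25 dpf ovaries and 0.418, 0.439 and 0.521 in the 30 dpf ovaries. In testes it was 0.831, 0.787, 0.667 and 0.577 at 25 dpf and 0.746, 0.786 and 0.734 at 30 dpf. All ovaries were below all testes, with means of 0.48 ± 0.0517 (SD, n = 5) and 0.733 ± 0.0858 (SD, n = 7). At 25 dpf *mt-cyb* overlapped between the sexes, at 1339 and 1832 CPM in ovaries and 1400 to 2103 CPM in testes. The nuclear sum did not, at 2760 and 3400 CPM in ovaries and 2100 to 2530 CPM in testes. At 30 dpf the nuclear sum was 2260 to 2420 CPM in ovaries and 1860 to 2140 CPM in testes, also without overlap.

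For complex IV the ratio was 1.65 and 1.34 in the 25 dpf ovaries and 1.87, 1.55 and 1.90 in the 30 dpf ovaries. In testes it was 2.22, 2.39, 2.15 and 1.70 at 25 dpf and 2.63, 2.49 and 2.48 at 30 dpf. The sexes stood apart within each age but overlapped across ages, through 25 dpf testis 4. At 25 dpf the mitochondrial sum of complex IV overlapped, at 4420 and 6404 CPM in ovaries and 5053 to 7344 CPM in testes. Its nuclear sum was 3303 and 3890 CPM in ovaries and 2461 to 3301 CPM in testes. For complex V the ratio was 0.0477 to 0.0676 in the 30 dpf ovaries and 0.0959 to 0.146 in the 30 dpf testes, whereas at 25 dpf it was 0.105 and 0.0927 in ovaries and 0.0985 to 0.118 in testes, with overlap. The ratios depend on the lengths of the genes and are compared between gonads, not between complexes. They were computed with earlier results known and have no test. How often ratios between other sets of genes part the sexes was not computed, so the splits have no background. Among single tested genes, every ovary was below every testis for 8.2% over all 12 gonads, 19.1% at 25 dpf and 25.7% at 30 dpf.

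**Figure D5:**
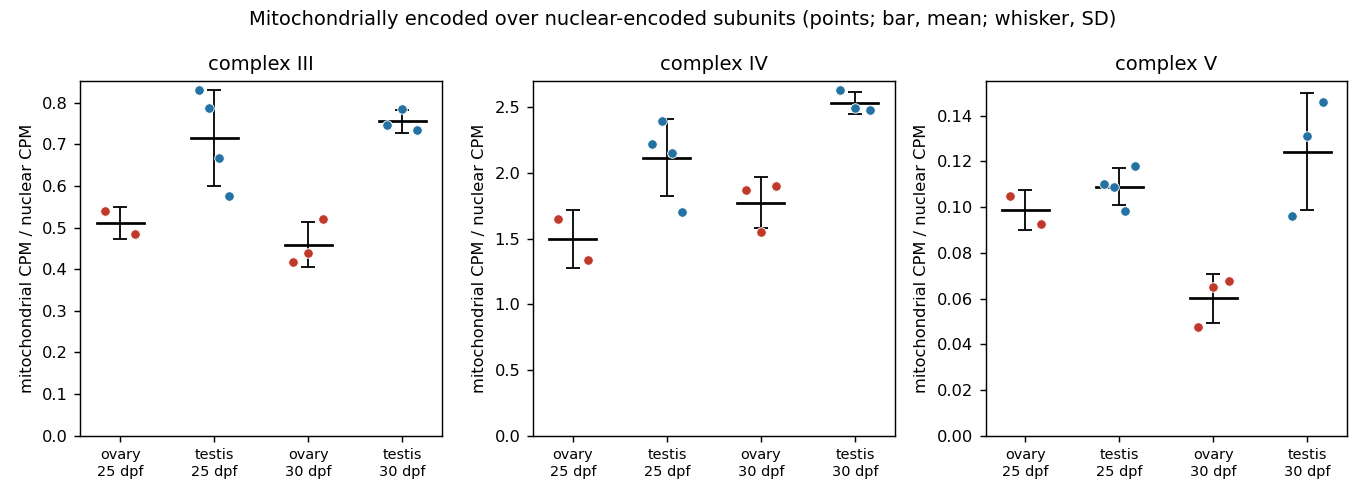
Summed CPM of mitochondrially encoded subunits divided by summed CPM of nuclear-encoded subunits of complexes III, IV and V in each gonad, with group means (bars) and SDs (whiskers) and a separate axis from 0 for each complex. At 30 dpf all ovaries lie below all testes in each complex, and for complex III this holds over both ages, at 0.418 to 0.539 against 0.577 to 0.831.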

How the data were processed

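The authors mapped the reads with HISAT2 2.0.5 to GRCz11, removed duplicates with Picard and counted reads on exons with HTSeq 0.9.1 in its reverse-stranded mode. The deposited values are raw counts per gene; whether the amplification kit kept the strand is not given in the sources used here. Removal of duplicates can lower the counts of highly expressed genes such as these. The column names give the size of a gonad, its age and a number. Columns of big gonads were taken for ovaries, those of small gonads for testes, and the number for the replicate; the study calls these gonads putative ovaries and testes.

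Counts were fitted with edgeR 4.0.16 in R 4.3.3 (filterByExpr, TMM, quasi-likelihood, 1 mean per group, all 12 gonads, adjusted p threshold 0.05). SE is the log2 fold change divided by the root of F. Total counts per gonad were 4471588 to 5331223, and 3 counts equal 0.528 to 0.806 CPM. The members and gene lists were chosen with earlier results of these data known. From each nuclear list, up to 2 called genes of largest change in each direction over both ages are named, with the 5 genes outside the mitochondrial genome most correlated with the members' mean log2(CPM + 1). Listed symbols were matched by symbol, RefSeq synonym or paralogue stem, and 10 were unmatched. A match by stem can bring in a paralogue. *sox9a*, *slc4a1a*, *slc20a1a*, *tnnt3b*, *acta1b* and *cox7a2a* each matched 2 entries in this way. Alternatives were DESeq2 1.42.0, other scalings, filters, fewer groups, an additive model, robust dispersion, a replicate block and each gonad left out. Gonads of equal replicate number differ in sex or age and are different animals. What the number stands for is not stated, so whether gonads of equal number shared a clutch, day or batch is not known. The main fit did not use the numbers.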

Additional observations from a re-analysis of the deposited data

Results flagged for a closer look

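Among 27 measures of the 4 testes at 25 dpf, a single gonad stood far from the others in 2. Muscle markers were at 41100 CPM in testis 1 and at 375 to 1110 CPM in the other 3, so that the gap filled 0.982 of the range, past the critical value of Dixon's test for 4 samples. The 100 genes with most counts held 21.6% of counts in testis 1 and 14.7% to 15.8% in the other 3, a gap of 0.841 of the range. Chance flags about 1 in 20 such groups. Neither measure is a level of the 6 mitochondrial genes, none of which was set apart in this way. The share of the top 100 genes was also high in 30 dpf ovaries 1 and 2, at 20.6% and 20.2%, which this screen did not cover.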

How the results depend on the processing

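The number of members lower in ovaries over both ages was 2. It was 1 with DESeq2, RLE size factors, no filter or an additive model, 4 with upper-quartile scaling or total counts, 0 without 30 dpf ovaries 1 and 2, and 0 to 3 with single gonads left out. At 30 dpf it was 3, and it was 5 with upper-quartile scaling or total counts, 0 without those ovaries, and 0 to 4 with single gonads left out. Over all genes the main fit had 4108 lower calls over both ages and 3188 at 30 dpf. With single gonads left out these were 2139 to 4245 and 1985 to 3279. Under the other alternatives they were 1835 to 5545 and 280 to 4597. Upper-quartile scaling and total counts moved the median of all genes from −0.13 to −0.27 and −0.34 over both ages, and from −0.11 to −0.29 and −0.41 at 30 dpf. At 30 dpf all 6 members were below 0 under every alternative that gave a value. *mt-atp8* fell to the filter of at least 10 counts, and DESeq2 gave it no adjusted p for the age dependence or with age in ovaries. Apart from single gonads left out, 9 alternatives gave *mt-atp8* a value at 30 dpf, against 11 for *mt-atp6*. At 30 dpf *mt-co3* lost its call with RLE (edgeR adjusted p = 0.0528) and no filter (0.0738), and *mt-cyb* gained one with the stricter filter (0.0389), only the groups compared (0.0386) and robust dispersion (0.0408). *mt-atp6* gained one over both ages with the stricter filter (0.0441). With all gonads kept, directions turned as follows: *mt-co2* over both ages was 0.019 with DESeq2 and with RLE and 0.033 with no filter (0.023 without those ovaries), and *mt-atp6* at 25 dpf was −0.091 with upper-quartile scaling, −0.107 with total counts and −0.012 with the stricter filter. With single gonads left out, the ranges of values that turned were −0.10 to 0.13 for *mt-co2* over both ages; at 25 dpf −0.685 to 0.019 for *mt-co1*, −0.069 to 0.388 for *mt-co2*, −0.004 to 0.366 for *mt-atp8*, −0.114 to 0.19 for *mt-atp6*, −0.321 to 0.073 for *mt-co3* and −0.279 to 0.18 for *mt-cyb*; −0.621 to 0.082 for the age dependence of *mt-co1*; with age in ovaries −0.531 to 0.172 for *mt-co1* and −0.406 to 0.05 for *mt-co2*; and with age in testes −0.012 to 0.176 for *mt-co1*, −0.277 to 0.46 for *mt-atp8*, −0.105 to 0.21 for *mt-atp6* and −0.131 to 0.058 for *mt-co3*. The causes were not tested.

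Over all genes, calls at 25 dpf (1666 higher, 886 lower) were 850 and 346 with only the groups compared and 81 and 11 without 25 dpf ovary 2; lower calls were 1668 with DESeq2 and 581 with no filter. Without 30 dpf ovaries 1 and 2 they were 2560 and 1835 over both ages and 848 and 280 at 30 dpf. DESeq2 called 55 and 34 genes for the age dependence, 120 and 70 with age in ovaries and 239 and 132 in testes.

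In a fit that blocked on the replicate number, *mt-co3* at 30 dpf was −0.50 (adjusted p = 0.0531, edgeR), no longer called, *mt-co1* with age in testes turned to −0.003, and calls over all genes at 25 dpf were 937 and 368. *si:ch1073-325m22.2*, *cox11* and *atpaf1* lost their calls over both ages (adjusted p = 0.0806, 0.0632 and 0.076). No other call of a named gene changed. Correlations of deviations between gonads of equal number were −0.242 to 0.139 over 15 pairs.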
